A study of Mus musculus with 6 samples.

Results

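The genes of myostatin and activin signalling were examined in RNA of EDL, the extensor digitorum longus, which is a muscle of fast-twitch fibres in the lower leg, from mice with floxed Akt1 and Akt2 and a muscle Cre, called mAktDKO, and from their controls. The 10 genes were chosen by symbol, out of 24411 genes in the table: the ligands Mstn and Gdf11, the receptors Acvr1b, Acvr2a, Acvr2b and Tgfbr1, the inhibitors Fst and Fstl3, and the signal carriers Smad2 and Smad3. The choice was made with their values in this same comparison known, so their levels are given as a description, and the counts of these genes past a threshold stand beside those of all genes without being read as evidence. The mAktDKO group held 3 mice carrying floxed Akt1 and Akt2 together with Mlc1f-Cre, which is driven by a myosin light-chain promoter active mainly in fast-twitch fibres. The control group held 3 mice with the same floxed alleles and no Cre. Mice of both groups were labelled as C57BL/6J and were 50 weeks old.

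Myostatin, the product of Mstn, is secreted by muscle and restrains muscle mass, and activins act on muscle through much the same receptors. The ligand binds a type II receptor (Acvr2a or Acvr2b), which recruits and activates a type I receptor (Acvr1b, also called ALK4, or Tgfbr1, also called ALK5), and the type I receptor phosphorylates Smad2 and Smad3, which enter the nucleus with Smad4. Follistatin (Fst) and the follistatin-like protein Fstl3 bind the ligands outside the cell and keep them from the receptors.

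Each library held between 13738795 and 15445523 estimated fragments. A level is given as counts per 1000000 (CPM) of a library's total scaled by TMM, and 3 counts correspond to 0.180 to 0.227 CPM. Akt2 was at 51.3, 49.1 and 52.7 CPM in the mAktDKO mice and at 172, 133 and 143 CPM in the control mice (log2 fold change -1.55). Akt1 was at 55.7 ± 3.89 CPM against 66.2 ± 0.56 CPM (mean ± SD, n = 3, log2 fold change -0.25, adjusted p = 0.115 with edgeR), so RNA of both genes was still present in the whole muscle and Akt1 was not called. Control mouse 2 stood apart from the other 5 mice. Its chi-square per degree of freedom was 48.2 to 65.8 against the mAktDKO mice. Against control mice 3 and 4 it was 26.2 and 25.4, beside 10.2 between those 2 mice. Among the other 5 mice the range was 7.22 to 26.9, so only the distances to mAktDKO mice lay above it. Values without control mouse 2 are given beside several results. Of all 12892 genes tested, 6762 had a log2 fold change above 0, and the groups did not overlap in 31.1% (14.5% higher and 16.6% lower in mAktDKO mice), which is the background for the marker lists. All 11 fast fibre markers had a log2 fold change below 0 (summed level 118381 to 133028 CPM in mAktDKO and 137237 to 148801 CPM in control mice), 7 of them with no overlap (beside 16.6%), and the log2 ratio of the summed levels was -0.21, or -0.072 when scaled by library totals. Of the 7 slow fibre markers 6 lay above 0 (680 to 1317 CPM against 607 to 884 CPM, log2 ratio 0.55, or 0.35 without mAktDKO mouse 2), and every one of them overlapped. All 8 fibroblast markers lay above 0 (13406 to 14817 CPM against 4997 to 12256 CPM), 5 of them with no overlap (beside 14.5%), and the log2 ratio of the summed levels was 0.61, or 0.30 without control mouse 2. Col1a2, a collagen chain, made up most of that sum (10685 CPM in mAktDKO and 6577 CPM in control mice), and Col3a1, Lum and Pi16 overlapped. All 6 tenocyte markers lay above 0 (1242 to 1780 CPM against 944 to 1252 CPM), 4 of them with no overlap (beside 14.5%), as did all 6 macrophage markers (111 to 140 CPM against 75.3 to 119 CPM) and all 6 adipocyte markers (181 to 317 CPM against 154 to 208 CPM). The satellite cell (5 of 5) and blood (4 of 4) markers were above 0 as well, and the endothelial (4 of 6), mural (3 of 5) and Schwann (4 of 5) markers were mixed. Among the blood markers the adult beta-globin gene Hbb-bs had 370, 154 and 146 estimated counts in the mAktDKO mice and was listed at 0 in all 3 control mice. Whether its reads can be separated from those of other globin genes was not tested, so its own level is uncertain. None of the defining markers in the 11 cell type lists was at 0 in all 6 mice, and the part of these cells in the levels below was not tested. In whole muscle, fewer cells of a type and less RNA per cell cannot be told apart.

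Mstn and Gdf11 encode close relatives, and their levels can only be compared if their reads can be separated. In the transcripts of GENCODE M21 on GRCm38 (mm10), no 37-base stretch of Mstn or Gdf11, the length of a read, was found in a transcript of another gene, and each of their counts was a whole number.

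The levels of the ligands overlapped between the groups. Mstn was at 44.3, 47.1 and 59.9 CPM in the mAktDKO mice and at 65.0, 49.7 and 53.9 CPM in the control mice. The log2 fold change was -0.16 (SE 0.14), and mAktDKO mouse 3 was above control mice 3 and 4. Without control mouse 2, the highest of the 6 mice, the log2 fold change of Mstn was -0.041, and without mAktDKO mouse 3, the highest of its group, it was -0.31. When all 6 mice were scaled by library totals, the value was -0.023. Gdf11, which acts on the same receptors and is known above all for patterning the axial skeleton, was at 6.47, 6.59 and 4.66 CPM in mAktDKO mice and 5.73, 5.03 and 6.20 CPM in control mice. The lowest and the highest of these 6 values were both in mAktDKO mice, and the log2 fold change was 0.066 (SE 0.18). Its sign turned when any of 3 mice was left out. Of the counts of both genes per kb of exon, Mstn made up 92.6 ± 2.18% in mAktDKO and 93.7 ± 0.78% in control mice, and the groups overlapped.

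**Figure D1:**
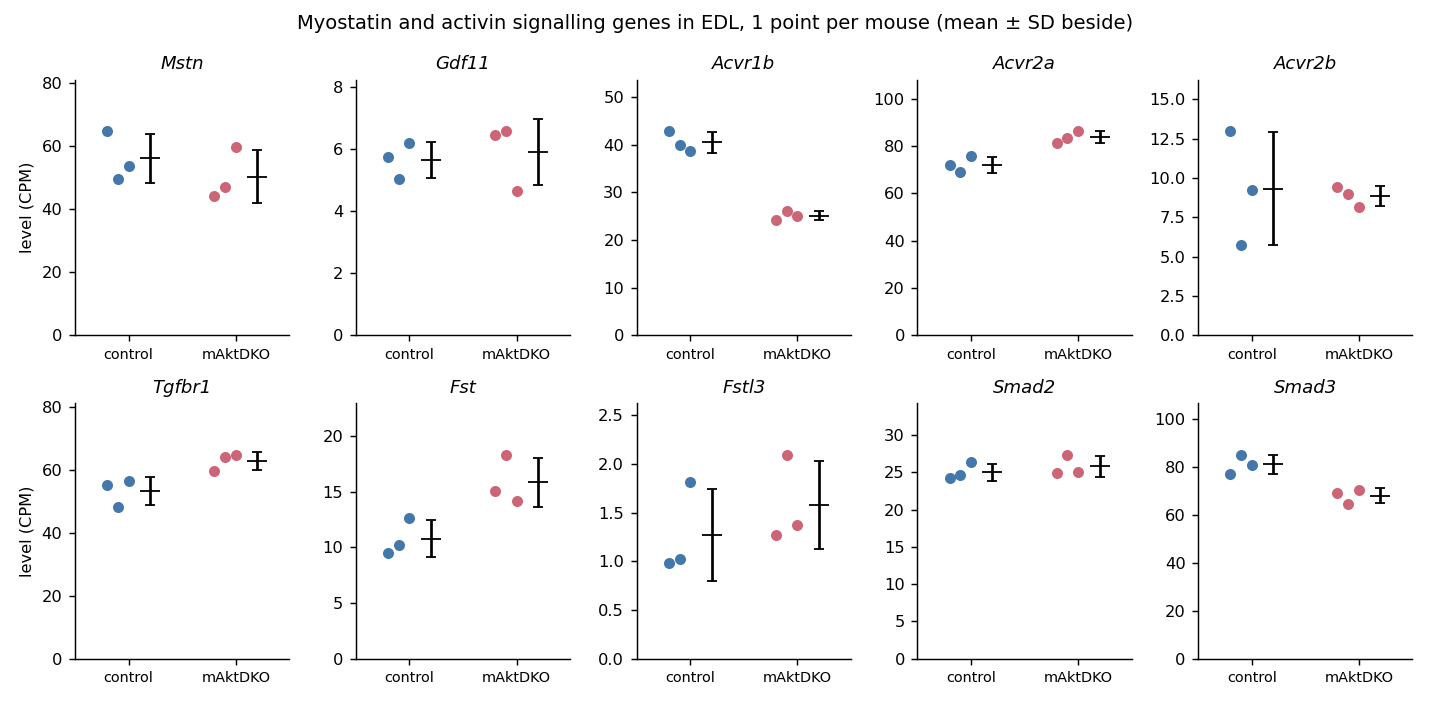
Level of each of the 10 genes in CPM on a linear axis from 0, with 1 point per mouse (3 control in blue, 3 mAktDKO in red) and the mean ± SD to the right of each group. Acvr1b and Smad3 were lower and Acvr2a, Tgfbr1 and Fst higher in mAktDKO mice with no overlap between the groups, and the other 5 genes overlapped. Groups did not overlap in 31.1% of all 12892 genes tested, and the 10 genes were chosen with these values known.

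The receptors differed from each other in direction. Acvr1b (chr15:101174067-101213684, plus strand), the type I receptor used by activins and myostatin, was at 24.3, 26.1 and 25.0 CPM in mAktDKO mice and at 42.9, 40.1 and 38.6 CPM in control mice. The groups were far apart compared with the spread within them, at 25.1 ± 0.93 CPM against 40.5 ± 2.19 CPM, and the log2 fold change of -0.69 (SE 0.084) was the furthest from 0 among the 10 genes in the edgeR fit with TMM scaling. With library totals, Fst (0.70) was further from 0 than Acvr1b (-0.55). Leaving out each mouse in turn, with TMM scaling, gave -0.73 to -0.65 for Acvr1b. Tgfbr1 (chr4:47353222-47414931, plus strand), the type I receptor of TGF-beta, which myostatin also uses, was at 59.5, 64.2 and 64.9 CPM in mAktDKO mice and 55.2, 48.1 and 56.6 CPM in control mice. The groups did not overlap, although mAktDKO mouse 1 and control mouse 4 were close to each other (log2 fold change 0.24, SE 0.089).

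The balance between the 2 type I receptors can be read within each mouse, where the scaling of the libraries has no part. Of the Acvr1b and Tgfbr1 counts per kb, Acvr1b made up 37.2%, 37.1% and 35.8% in the mAktDKO mice and 53.0%, 54.7% and 49.8% in the control mice. Acvr1b was thus the more abundant of the pair in 2 control mice and close to even in control mouse 4, and the less abundant in all 3 mAktDKO mice. The difference between the means was -15.8 percentage points and stayed between -17.2 and -14.7 when each mouse was left out. With the longest coding transcript as the length, the means were 34.2 ± 0.74% and 49.8 ± 2.52%, so which receptor was ahead in the controls depended on the gene model and the direction of the difference did not.

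**Figure D2:**
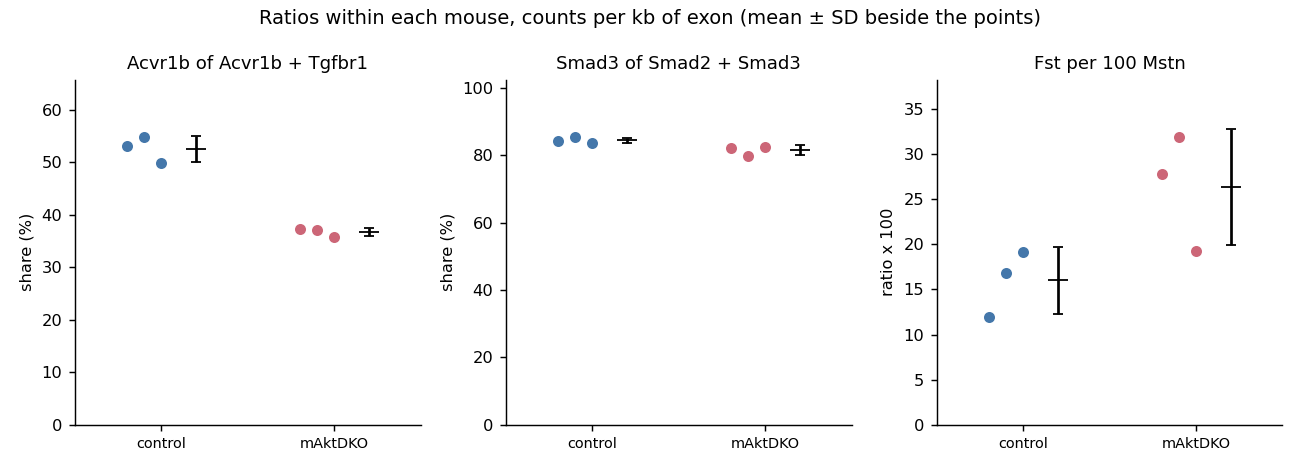
Ratios computed inside each mouse from counts per kb of exon, with 1 point per mouse (control in blue, mAktDKO in red) and the mean ± SD beside the points. The share of Acvr1b in Acvr1b plus Tgfbr1 was 35.8 to 37.2% in mAktDKO and 49.8 to 54.7% in control mice, while the groups of Fst per 100 Mstn nearly met at 19.3 and 19.2.

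Of the type II receptors, Acvr2a separated the groups and Acvr2b did not. Acvr2a (chr2:48814109-48903269, plus strand) was at 81.4, 83.3 and 86.5 CPM in mAktDKO mice and at 71.8, 68.9 and 75.8 CPM in control mice (log2 fold change 0.21, SE 0.076), with no overlap. An exon of Acvr2a shares 446 bases with Orc4 on the opposite strand, and whether the counting used the strand is not given in the sources used here. Orc4, a subunit of the origin recognition complex, was at 16.9 ± 0.45 CPM in mAktDKO and 13.9 ± 1.07 CPM in control mice, without overlap. Each Acvr2a count was a whole number, but whether a part of them came from reads of Orc4 was not tested. Only 7.26% of the 37-base stretches of Acvr2a were shared with Orc4. Acvr2b was at 9.45, 8.99 and 8.16 CPM in mAktDKO mice and at 13.0, 5.76 and 9.22 CPM in control mice. The control mice spread over a wider range than the mAktDKO mice, which all fell inside it (log2 fold change -0.075, SE 0.25), and the sign was positive without control mouse 2 (0.24) and when scaled by library totals (0.073). Of the Acvr2a and Acvr2b counts per kb, Acvr2a made up 85.6 ± 1.29% in mAktDKO and 83.2 ± 5.34% in control mice.

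The sequences upstream of a ligand and of 2 receptors that differed in opposite directions are shown to compare their base composition and motif content. They are the 250 bases before the RefSeq start on GRCm38.p6, all on the plus strand, at chr1:53061390-53061639 for Mstn, chr15:101173822-101174071 for Acvr1b and chr2:48813859-48814108 for Acvr2a. Capitals mark the Smad-binding letters CAGAC or, on the other strand, GTCTG.
Mstn: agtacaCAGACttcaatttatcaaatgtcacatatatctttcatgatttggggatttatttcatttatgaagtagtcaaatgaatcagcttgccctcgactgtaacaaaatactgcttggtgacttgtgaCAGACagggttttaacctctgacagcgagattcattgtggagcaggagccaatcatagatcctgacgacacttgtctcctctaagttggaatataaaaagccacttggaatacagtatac
Acvr1b: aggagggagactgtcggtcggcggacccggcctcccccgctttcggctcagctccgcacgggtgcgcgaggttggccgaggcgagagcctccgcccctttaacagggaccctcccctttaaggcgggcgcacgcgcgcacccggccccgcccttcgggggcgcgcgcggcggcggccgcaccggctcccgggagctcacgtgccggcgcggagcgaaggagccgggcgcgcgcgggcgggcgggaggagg
Acvr2a: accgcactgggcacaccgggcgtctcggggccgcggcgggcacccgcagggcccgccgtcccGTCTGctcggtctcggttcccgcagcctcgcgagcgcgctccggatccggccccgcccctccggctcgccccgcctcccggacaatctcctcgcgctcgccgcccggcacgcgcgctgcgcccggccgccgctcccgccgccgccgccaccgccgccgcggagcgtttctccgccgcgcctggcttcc
Motifs were searched on both strands in windows of 300 bases, which also hold the first 50 transcribed bases. Of the 10 genes, 8 matched a RefSeq promoter. CAGAC was found 2 times for Mstn and Fstl3 and 1 time for Acvr2a, Acvr2b and a second start of Tgfbr1, and 49.6% of all 32851 promoters hold it. None of the 8 genes held the FoxO letters GTAAACA, which 3.65% of promoters hold, and the E-box CAGCTG (16.3% of promoters) was found only for Gdf11. The windows of Acvr1b and Acvr2a were GC-rich, at 79.7% and 80.3%, and that of Mstn was not, at 41.3%. These letters describe the windows only, and a match is not a measured binding site.

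Follistatin was higher in the mAktDKO mice. Fst (chr13:114452290-114458951, minus strand) was at 15.0, 18.3 and 14.1 CPM in mAktDKO mice and at 9.51, 10.2 and 12.6 CPM in control mice. The groups did not overlap, and mAktDKO mouse 2 was the highest. The log2 fold change was 0.56 (SE 0.15, edgeR adjusted p = 0.0784), or 0.47 without control mouse 2. An antisense gene, Gm47040, shares 2.37% of the 37-base stretches of Fst. Fst is also expressed by cells of connective tissue, and the summed fibroblast markers given above were higher in the same mice. Among the mAktDKO mice, mouse 2 had the highest Fst and the lowest sum (13406 CPM), and mouse 3 the lowest Fst and the highest sum (14817 CPM). Among the control mice both rose from mouse 2 to mouse 4. The part of these cells in the Fst level was not tested. Relative to the ligand in the same mouse, Fst counts per kb were 27.8, 31.8 and 19.3 per 100 of Mstn in the mAktDKO mice and 12.0, 16.8 and 19.2 in the control mice. mAktDKO mouse 3, with the most Mstn of its group, and control mouse 4, with the most Fst of its group, were therefore at almost the same ratio.

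Fstl3 was the lowest of the 10 genes, with 14 to 35 counts per mouse. It was at 1.27, 2.10 and 1.37 CPM in mAktDKO mice and 0.979, 1.02 and 1.81 CPM in control mice, and the groups overlapped (log2 fold change 0.32, SE 0.35). The value was 0.058 without mAktDKO mouse 2, 0.16 without control mouse 2, 0.19 without control mouse 3 and 0.66 without control mouse 4. With this SE, a difference of the size seen for Fst was not detectable in Fstl3 at this depth. Of its 37-base stretches, 58.4% lie within Prss57 on the opposite strand, a gene with at most 1 count in any mouse.

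Of the signal carriers, Smad3 was lower in every mAktDKO mouse than in any control mouse with TMM scaling, and Smad2 overlapped. Smad3 (chr9:63646767-63757994, minus strand) was at 68.9, 64.7 and 70.5 CPM in mAktDKO mice and at 77.1, 85.1 and 80.8 CPM in control mice (log2 fold change -0.25, SE 0.078). When scaled by library totals, its log2 fold change was -0.12. The highest mAktDKO mouse and the lowest control mouse were 70.5 and 77.1 CPM. Smad2 was at 24.9, 27.4 and 25.1 CPM in mAktDKO mice and at 24.2, 24.6 and 26.3 CPM in control mice (log2 fold change 0.044, SE 0.088, and 0.019 without control mouse 2). Of the Smad2 and Smad3 counts per kb, Smad3 made up 82.2%, 79.8% and 82.5% in mAktDKO mice and 84.2%, 85.3% and 83.7% in control mice, a difference of -2.90 percentage points with no overlap.

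Levels can be ranked between genes only per length. In control mice Mstn was the most abundant at 20.8 ± 2.91 CPM per kb of exon, followed by Smad3 at 15.4 ± 0.77, Acvr2a at 12.7 ± 0.60, Acvr1b at 9.18 ± 0.50 and Tgfbr1 at 8.30 ± 0.71. Fst at 3.26 ± 0.49, Smad2 at 2.85 ± 0.13, Acvr2b at 2.61 ± 1.01, Gdf11 at 1.39 ± 0.14 and Fstl3 at 0.65 ± 0.24 CPM per kb came after. The mice of neighbouring genes in this order overlapped for Acvr1b with Tgfbr1, Fst with Smad2 and Smad2 with Acvr2b, and did not overlap for the other 6 neighbouring pairs. In mAktDKO mice Acvr2a (14.7 ± 0.45 CPM per kb) stood above Smad3 (13.0 ± 0.57), and Tgfbr1 (9.80 ± 0.45) above Acvr1b (5.69 ± 0.21). Acvr1b there overlapped with Fst (4.79 ± 0.67).

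**Figure D3:**
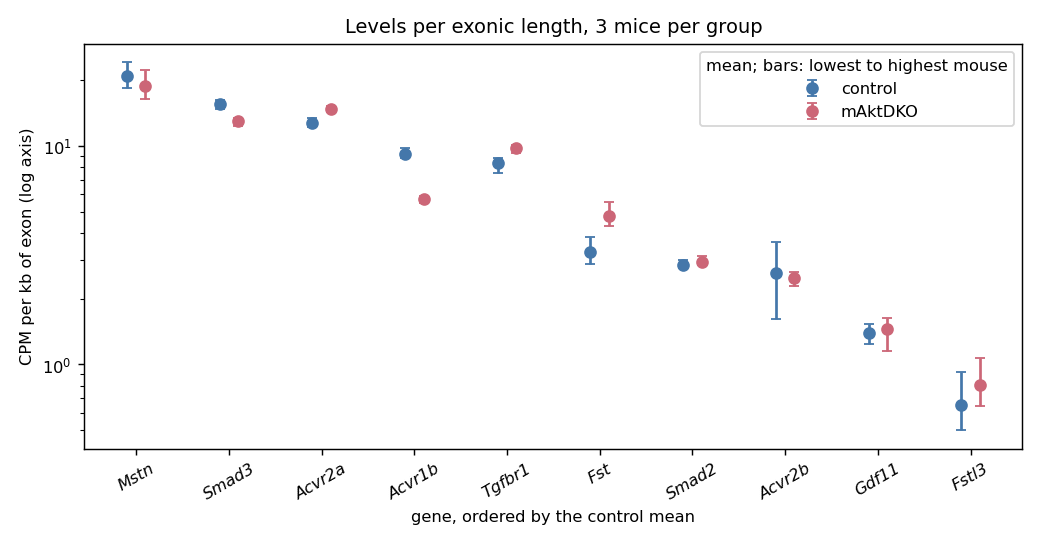
Mean CPM per kb of exon on a log axis for the 10 genes in the order of the control mean, with bars from the lowest to the highest of 3 mice (control in blue, mAktDKO in red). Mstn led in both groups (20.8 and 18.6 CPM per kb), and Acvr1b and Tgfbr1 overlapped in control mice and were apart in mAktDKO mice (5.69 and 9.80 CPM per kb).

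All 10 genes passed the filter on low counts. At an edgeR adjusted p under 0.01, 0 of the 10 were called, beside 0.0233% of the 12892 genes tested, and DESeq2, which gave an adjusted p to 9616 genes and to all of the 10 but Fstl3, called 1, Acvr1b, beside 3.55%. At an adjusted p under 0.05, edgeR called 1, again Acvr1b, beside 1.18% of all genes tested in either direction and 0.915% in the lower direction, and DESeq2 called 2, Acvr1b and Fst, beside 8.17%. With all 6 mice, the edgeR adjusted p was 0.0180 for Acvr1b, 0.0784 for Fst, 0.107 for Smad3, 0.138 for Acvr2a and 0.149 for Tgfbr1. For the other 5 genes it was 0.498 or above. The edgeR adjusted p of Acvr1b was 0.097, 0.105 and 0.079 without mAktDKO mice 1, 2 and 3, and 0.0515 without control mouse 3. It was 0.0133 and 0.031 without control mice 2 and 4. The log2 fold change in these fits was -0.73 to -0.65. At an unadjusted edgeR p under 0.05 there were 5, beside 24.5%: 3 higher, beside 11.4%, and 2 lower, beside 13.1%. Groups did not overlap in 5 of the 10 genes, beside 31.1% of all genes tested, 3 of them higher (beside 14.5%) and 2 lower (beside 16.6%). The median log2 fold change was 0.055 over the 10 genes and 0.017 over all genes tested. The 10 genes were chosen from this comparison, so nothing is read from these shares.

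The rest of the pathway was described with a list of 52 genes grouped by role, of which 43 passed the filter. At an adjusted p under 0.01 edgeR called 0 of them and DESeq2 0. At an unadjusted p under 0.05 edgeR gave 9 of 43, 5 higher and 4 lower in mAktDKO mice, beside 11.4% and 13.1% of all genes tested. At an adjusted p under 0.05 edgeR called 0 and DESeq2 3 (Acvr1c, Cdkn1a and Fn1), beside 8.17% of all genes for DESeq2. Groups did not overlap in 10 of the 43 genes, beside 31.1% of all genes tested. Of these, 8 were higher, beside 14.5%, and 2 lower, beside 16.6%. The adjusted p-values that follow come from the quasi-likelihood test of edgeR and are adjusted by Benjamini-Hochberg over all 12892 genes. The median log2 fold change of the 43 genes was 0.15.

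Among other activin-class ligands and inhibins, 4 of 8 genes were measured above the filter. The activin subunit Inhba was at 1.84, 1.80 and 2.19 CPM in mAktDKO mice and 1.68, 1.75 and 1.36 CPM in control mice, with no overlap (log2 fold change 0.28, adjusted p = 0.503). Inhbb, the other main activin subunit, was at 1.02 to 3.22 CPM over the 6 mice and overlapped. Inha, the inhibin subunit that pairs with activin subunits to form an antagonist, was at 2.41, 3.17 and 2.19 CPM in mAktDKO mice and at 2.87, 7.95 and 5.44 CPM in control mice (log2 fold change -1.05, SE 0.34, adjusted p = 0.119), with control mouse 2 inside the mAktDKO range. Without that mouse the value was -1.36 (adjusted p = 0.0403), and without control mouse 3 it was -0.67 (adjusted p = 0.243). Gdf1 shares a transcript with Cers1, and the estimated counts of the 2 genes were complementary between mice. Gdf1 had its highest levels, 17.2 and 20.6 CPM, in mAktDKO mouse 2 and control mouse 3, where Cers1 had 0 and 0.01 counts, while their summed counts were 268 to 335 in the 6 mice. Its own level is therefore uncertain.

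Of the other receptors and co-receptors, 5 of 7 were tested. Acvr1c, the type I receptor ALK7 of adipose tissue, was at 6.28, 12.6 and 2.67 CPM in mAktDKO mice and at 3.29, 2.17 and 3.55 CPM in control mice (log2 fold change 1.27, SE 0.48, adjusted p = 0.155). mAktDKO mice 1 and 2 were above all controls and mAktDKO mouse 3 was among them, and without mAktDKO mouse 2 the log2 fold change was 0.58. The summed adipocyte markers were 279, 317 and 181 CPM in these mAktDKO mice, against 164, 154 and 208 CPM in control mice 2 to 4, so the same 2 mice were highest in both. Adipoq, the adipocyte hormone adiponectin, was at 16.9, 21.9 and 5.69 CPM in mAktDKO and 5.94, 4.60 and 9.53 CPM in control mice. The part of adipocytes in the Acvr1c level was not tested.

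**Figure D4:**
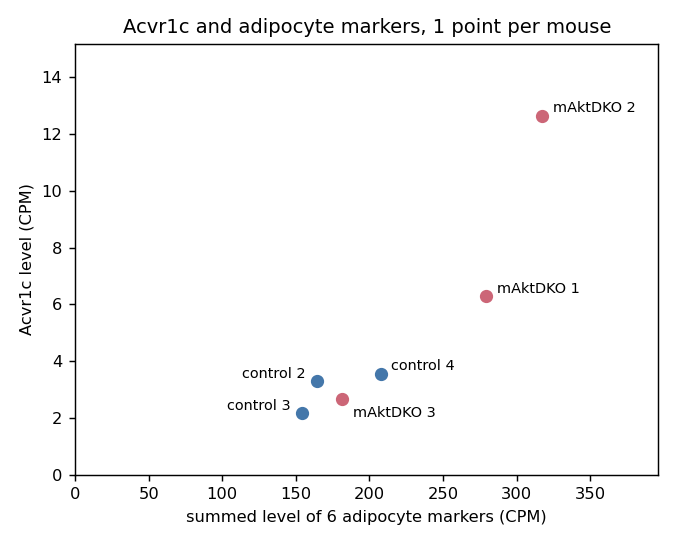
Level of Acvr1c in CPM against the summed CPM of 6 adipocyte markers, with 1 labelled point per mouse (control in blue, mAktDKO in red) and both axes from 0. mAktDKO mice 1 and 2 had the highest values on both axes, and mAktDKO mouse 3 lay among the control mice.

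Of the proteases that free the ligands from their precursors, 5 of 6 were tested. All 5 had a log2 fold change above 0, beside 6762 of the 12892 genes tested, and 1 of the 5 had an unadjusted p under 0.05. Pcsk6, a proprotein convertase, was at 57.4, 53.8 and 51.7 CPM in mAktDKO mice and at 44.3, 51.6 and 44.2 CPM in control mice, an almost touching pair of groups (log2 fold change 0.22, adjusted p = 0.187). Of the other extracellular antagonists and binding proteins, 4 of 5 were tested and none reached an unadjusted p under 0.05. The log2 fold change of Fstl1, a glycoprotein of the follistatin family, was 0.46 (adjusted p = 0.274), or 0.19 without control mouse 2, where it was lowest at 122 CPM. Wfikkn2, a myostatin-binding protein, was at 9.05 ± 0.21 CPM in mAktDKO and 9.93 ± 2.61 CPM in control mice (adjusted p = 0.658), and its log2 fold change of -0.14 was 0.10 without control mouse 2.

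Of the Smad partners and brakes, all 16 were tested, 7 with a log2 fold change above 0 and 9 below. Smad4, the shared partner, overlapped between the groups at 75.3 ± 3.52 and 80.4 ± 2.11 CPM. Smad6, an inhibitory Smad that acts mainly on BMP signals, was at 7.93, 6.17 and 6.86 CPM in mAktDKO mice and at 10.6, 8.39 and 8.09 CPM in control mice (log2 fold change -0.37, adjusted p = 0.185, and -0.24 without control mouse 2). Tgif2, a transcriptional repressor that binds Smads, was low in all mice, at 1.90, 1.44 and 1.99 CPM against 0.979, 1.02 and 0.756 CPM (log2 fold change 0.94, adjusted p = 0.106). The log2 fold change of Trim33, a ubiquitin ligase that acts on Smad4, was 0.21 (adjusted p = 0.152). That of Ppm1a, a phosphatase of Smad2 and Smad3, was -0.23 (adjusted p = 0.203), or -0.14 without control mouse 2.

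Of the genes that Smad2 and Smad3 are known to induce, 9 of 10 were tested, 7 with a log2 fold change above 0 and 2 below. Cdkn1a, the cell cycle inhibitor p21, was at 26.6, 34.1 and 47.1 CPM in mAktDKO mice and at 52.4, 49.2 and 57.8 CPM in control mice (log2 fold change -0.56, SE 0.18, adjusted p = 0.112). Fn1, which encodes fibronectin, went the other way, at 651, 774 and 603 CPM against 395, 487 and 567 CPM (log2 fold change 0.49, SE 0.14, adjusted p = 0.0992), and at 0.36 without control mouse 2. Neither pair of groups overlapped. The summed fibroblast markers, given above, were lowest in control mouse 2 and higher in all 3 mAktDKO mice than in any control, although 3 of the 8 markers overlapped. The part of fibroblasts and tenocytes in the Fn1 level was not tested.

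**Figure D5:**
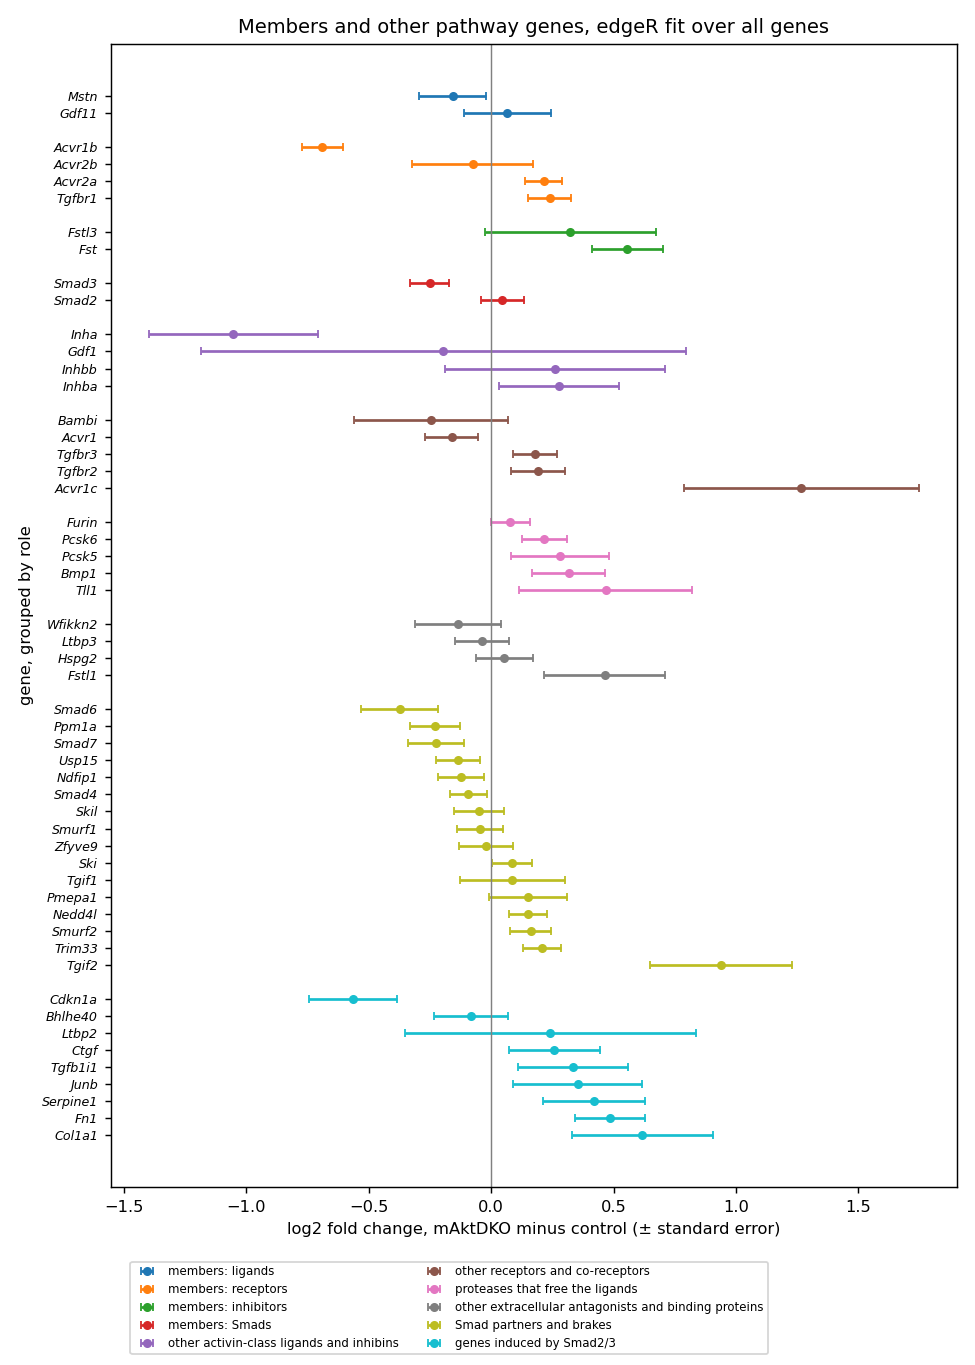
Log2 fold change of mAktDKO minus control with its standard error for the 10 genes and the 43 other tested pathway genes, grouped and coloured by role. Acvr1b is at -0.69 with a narrow error, while Inha, Acvr1c and Gdf1 have wide ones.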

How the data were processed

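RNA of EDL from 3 mAktDKO and 3 control mice was analysed. The authors sequenced rRNA-depleted directional libraries with paired 37-base reads, mapped them to mm10 with STAR and used RSEM 1.3.1 to estimate a count for each gene. The annotation is not given in the sources used here. The table deposited by the authors holds those estimated counts without any scaling. Its control mice carry the numbers 2 to 4 where the labels have 1 to 3, so each is used as a mouse of its group only. The p-values of the count tests set the difference between the groups against the spread between mice within groups.

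Counts were rounded to whole numbers and filtered by filterByExpr at a minimum count of 10. TMM scaling and the quasi-likelihood test were run in edgeR 4.0.16 under R 4.3.3, with Benjamini-Hochberg adjustment over 12892 genes. A gene was called at an adjusted p under 0.01. The total counts were 13738795 to 15445523 per mouse, and intervals and floors from them cover counting error only. Of 200 simulated 2-fold changes among 12892 genes, edgeR recovered 175 with 3 false calls and DESeq2 183 with 6. The changed genes were drawn only from a range of levels above those of Fstl3, Inhba, Inhbb and Tgif2. No smaller change was simulated, so the recovered share does not describe such low genes or smaller differences. Marker sums were compared by an exact two-sided permutation test, which cannot go below 0.1. With adjustment over the 11 lists, the adjusted p was 0.275 for 8 lists, fast fibre, fibroblast and adipocyte included, and 0.3 for satellite cell, macrophage and blood markers.

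The genes, the roles and the marker lists were chosen with earlier results of these data known. Pathway genes are named if called, at an unadjusted p under 0.05, or else, in a role with no such gene, if among its 2 smallest p. Inhba, Inhbb, Gdf1 and Smad4 were named after their values were seen. The list gene Ccn2 was matched as Ctgf. The alternatives were DESeq2 1.42.0, its size factors, library totals, no filter, another threshold and leaving out each mouse. A base comparison of the 2 ligand genes is not reported here.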

Additional observations from a re-analysis of the deposited data

How the results depend on the processing

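The number of all genes called was 3, and it was 32 with no filter on low counts, 341 with DESeq2, 152 at an adjusted p under 0.05 and between 0 and 8 when each mouse was left out. It was 0 without each of the 3 mAktDKO mice (1871 to 2794 genes at an unadjusted p under 0.05) and 8 without control mouse 2. The number of the 10 genes called was 0, and it was 1, Acvr1b, with no filter, with DESeq2 and with 0.05 as the threshold for edgeR. When each mouse was left out it was 0 each time (2 to 5 at an unadjusted p under 0.05). The number of other pathway genes called was 0 in every alternative run (4 to 17 at an unadjusted p under 0.05). Without mAktDKO mouse 2 these unadjusted counts were 2 of 10 and 4 of 43, beside 1871 of all 13034 genes tested. Without control mouse 4 they were 5 of 10 and 17 of 43, beside 3386 of 13127. With library totals they were 4 of 10 and 16 of 43, beside 3616 of 12892. The direction of 7 of the 10 genes was kept in all 10 alternatives run on them. The log2 fold change of Gdf11 was -0.0031 without mAktDKO mouse 1, -0.020 without mAktDKO mouse 2 and -0.012 without control mouse 3 (at most 0.19 over the mice left out), and that of Smad2 was -0.00085 without mAktDKO mouse 2, at most 0.080 over the mice left out, and 0.18 with library totals. Acvr2b was at 0.073 with library totals and 0.24 without control mouse 2, and Wfikkn2 at 0.0075 and 0.10, and their lowest values when a mouse was left out were -0.33 and -0.26. The cause was not tested. With library totals the log2 fold change was -0.023 for Mstn, 0.21 for Gdf11, -0.55 for Acvr1b, 0.35 for Acvr2a and 0.38 for Tgfbr1. It was 0.70 for Fst and -0.12 for Smad3. Among pathway genes it was -0.092 for Ppm1a, -0.23 for Smad6, 0.36 for Pcsk6 and 0.35 for Trim33. Library totals moved the median of all genes from 0.017 to 0.16. Relative to that median, Acvr1b was at -0.71, Fst at 0.54 and Smad3 at -0.27. The ratios within a mouse and the alternatives for the named pathway genes were added after seeing the data. No paired analysis was possible because the groups are different animals and no source ties a replicate number to a shared litter, batch or day. With 3 mice a group and 14 to 35 counts, a difference in Fstl3 of the size seen for Fst could not be resolved.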
